A study of Mus musculus with 2 samples.

Results

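Proliferative organoids of the mouse urothelium held a small population of cells with transcripts of the mitotic machinery. These mitotic cells were selected in the library of proliferative organoids (P). A barcode was kept with more than 800 detected genes and at most 12% of its unique molecular identifiers (UMIs, 1 for each captured transcript molecule) from mitochondrial genes. The cells were chosen by the UMIs of 12 rule genes: a kept cell was taken as mitotic when at least 3 of the 12 each had at least 1 UMI. The rule genes were Mki67, Top2a, Cenpf, Cenpa, Cdk1, Birc5, Ube2c, Ccnb1, Ccnb2, Aurkb, Nusap1 and Hmmr. The rule selected 353 of 6818 kept P cells, out of 11714 kept cells in the series. All values below on the rule genes describe how the cells were selected.

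In dividing cells, cyclin B with CDK1 drives entry into mitosis, condensin and topoisomerase II compact and untangle the chromosomes, and kinetochores attach them to the spindle. The Aurora B and survivin complex corrects wrong attachments, and the anaphase-promoting complex then destroys cyclin B so that the cell can divide. Transcripts of these proteins accumulate in G2 and mitosis and are scarce in resting cells. In the urothelium, the epithelium that lines the bladder, basal cells sit on the basement membrane and carry Krt5, Krt14 and Trp63. Intermediate cells lie above them, and superficial umbrella cells make uroplakin plaques.

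The organoids were grown from normal urothelium of wild-type C57BL/6 mice aged 8 to 10 weeks. P organoids were kept in complete medium with EGF, the TGF-β receptor inhibitor LY2157299, Noggin, WNT3A and RSPO1, and differentiated organoids (D) in medium from which these factors had been removed. Each condition was a single droplet library of enzymatically dissociated, unsorted cells, and the labels do not say how many mice or cultures it pooled. An organoid of this kind holds epithelium without stroma, vessels, immune cells, urine or stretch.

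The P library held 8194 barcodes and 28921755 UMIs, and the D library 6975 barcodes and 22949953 UMIs, of which 4896 barcodes were kept. Counting cells with exactly 800 genes as well would give 6826 P cells and again 353 mitotic ones. P and D shared 10 barcode sequences, of which 6 were kept in both libraries, and 1 mitotic cell carried one of the 10. With 1 library in each condition no difference could be tested. Intervals are 95% and exact (Poisson for UMIs scaled to a total of 1000000, CPM, binomial for shares, conditional binomial for log2 ratios), and they cover counting error only. Defining markers of other tissues were near 0: in the mitotic cells the fibroblast list had 1 UMI, leukocytes 1, endothelium 9 and erythroid cells 0, with 5 of 6, 5 of 6, 3 of 5 and 4 of 4 genes at 0.

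Promoters of the rule genes are shown because transcription of this gene group in G2 and mitosis is known to depend on CCAAT boxes, bound by NF-Y, and on the cell cycle genes homology region (CHR), bound by the DREAM and MuvB complexes. RefSeq promoters (GRCm38.p6, the 250 bases before each gene's start) were matched for 11 of the 12 rule genes, all except Aurkb. Both strands were searched for the CCAAT box, so that a box on the opposite strand appears in the printed letters as ATTGG. The CHR was searched as TTTGAA, whose complement on the opposite strand is printed as TTCAAA, and in the palindromic form written TTCGAA. A box and a CHR word may share bases where their ends meet. Capitals mark the matches in 4 of the promoters, all on the minus strand and printed 5′ to 3′. Top2a lies at chr11:99024190-99024439, Ccnb2 at chr9:70421555-70421804, Mki67 at chr7:135716380-135716629 and Hmmr at chr11:40733438-40733687.
Top2a: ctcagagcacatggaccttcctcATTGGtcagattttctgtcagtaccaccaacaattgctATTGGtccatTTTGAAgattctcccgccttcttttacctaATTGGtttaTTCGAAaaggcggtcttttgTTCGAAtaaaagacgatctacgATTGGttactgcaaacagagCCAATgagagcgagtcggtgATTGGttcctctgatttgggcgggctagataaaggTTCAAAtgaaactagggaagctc
Ccnb2: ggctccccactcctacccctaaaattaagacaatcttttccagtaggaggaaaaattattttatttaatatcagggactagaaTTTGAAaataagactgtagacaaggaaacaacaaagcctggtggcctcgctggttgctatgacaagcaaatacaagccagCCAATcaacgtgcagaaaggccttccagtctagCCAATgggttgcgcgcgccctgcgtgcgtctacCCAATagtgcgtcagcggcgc
Mki67: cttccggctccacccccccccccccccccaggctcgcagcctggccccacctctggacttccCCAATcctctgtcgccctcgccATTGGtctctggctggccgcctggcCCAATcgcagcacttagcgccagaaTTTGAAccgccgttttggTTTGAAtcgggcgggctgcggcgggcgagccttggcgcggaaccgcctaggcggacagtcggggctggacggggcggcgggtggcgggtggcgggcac
Hmmr: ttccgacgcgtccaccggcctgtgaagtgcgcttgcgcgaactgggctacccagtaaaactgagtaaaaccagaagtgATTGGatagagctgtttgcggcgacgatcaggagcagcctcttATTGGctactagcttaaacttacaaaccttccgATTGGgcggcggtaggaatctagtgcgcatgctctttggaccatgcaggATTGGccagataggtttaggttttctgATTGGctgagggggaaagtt

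Top2a carried 6 CCAAT boxes and 4 CHR words, Ccnb2 3 and 1, Mki67 3 and 2, and Hmmr 5 and 0. Of the 11 rule gene promoters, 9 (81.8%) held a CCAAT box, each of them at least 2, and 5 (45.5%) held both a CCAAT box and a CHR word. Over all 32851 RefSeq promoters of the same length the shares were 33.8% for a CCAAT box, 10.1% for at least 2, 17.1% for a CHR word and 6.02% for both. A CCAAT box was found for 29 of 43 genes (67.4%) of the spindle and cytokinesis list, and a CHR word for 20 of 43 (46.5%). For the S phase list these were 54 of 92 (58.7%) and 21 of 92 (22.8%). The shares of these 2 lists count a gene when any of its promoters matched. Counted in that way over all 27025 genes with a promoter, they were 37.5% for a CCAAT box and 19.6% for a CHR word. A match describes letters in a window and does not show that a factor binds there.

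Mitotic cells made up 5.18% of kept P cells (4.66 to 5.73), beside 14 of 4896 kept D cells (0.286%, 0.156 to 0.479). Deeper cells have more chances to show 3 rule genes, so each cell was also thinned to 2100 UMIs and shallower cells were left out (180 in P, among them 15 mitotic cells, and 479 in D). The thinned shares were 283 of 6638 cells (4.26%, 3.79 to 4.78) in P and 9 of 4417 (0.204%, 0.0932 to 0.386) in D. Median depth was 4112 UMIs and 1462 genes in mitotic cells and 3376 UMIs and 1139 genes in the other kept P cells. The median mitochondrial share was 5.41% and 5.88%.

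The number of rule genes per cell was spread broadly once past the threshold. Of kept P cells, 5681 had no rule gene, 707 had 1 and 77 had 2. Above the threshold, 101 cells had 3 to 5 rule genes, 101 had 6 to 8 and 151 had 9 to 12, and 25 cells had all 12. Median depth was 2951 UMIs in the cells with 3 rule genes and 5720 in those with 12. The 47 cells just inside the threshold most often had Cenpa (48.9%), Ube2c (40.4%) and Top2a (38.3%). In the 77 cells just outside it the shares were 37.7% for Cenpa and 31.2% each for Ube2c and Top2a.

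**Figure D1:**
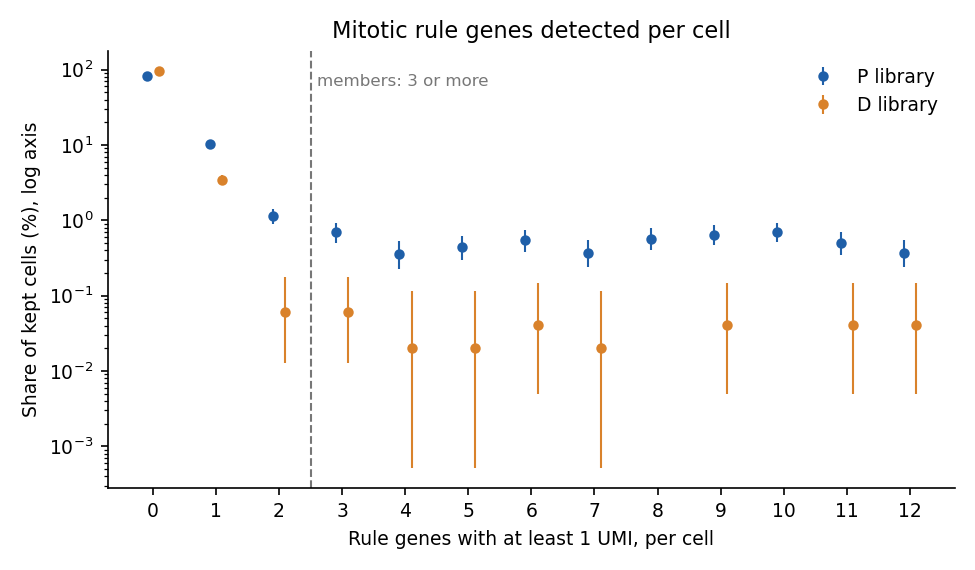
Share of kept cells (%, log axis) by the number of rule genes with at least 1 UMI, in the P and D libraries, with exact 95% binomial intervals. Cells to the right of the dashed line were taken as mitotic, 353 in P and 14 in D, and a number that no cell had is not drawn.

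The 6 markers proposed for these cells were all present. Mki67, a proliferation antigen that coats mitotic chromosomes, had a UMI in 70.3% of mitotic cells and Top2a, topoisomerase II alpha, in 79.3%. Cenpf, a kinetochore protein, was detected in 73.9%, the kinase gene Cdk1 in 61.8%, Ube2c, which encodes a ubiquitin-conjugating enzyme of the anaphase-promoting complex, in 79.3% and Ccnb1, cyclin B1, in 49.0%. In the other P cells, which could hold at most 2 rule genes, the shares of the 12 rule genes ran from 0.1% for Hmmr to 2.9% for Ube2c, and free RNA in the droplets can add to such values. Levels in the mitotic cells ran from 93.4 CPM for Aurkb, the Aurora B kinase gene, to 683 CPM for Top2a.

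Cell-cycle genes that the rule did not name were higher with them. Cdc20, the activator of the anaphase-promoting complex, stood at 258 CPM (234 to 284) in mitotic cells and 1.84 (1.35 to 2.45) in the other P cells. Cenpe, a kinetochore motor gene, was at 198 CPM (177 to 221) against 1.12 (0.74 to 1.62), and Prc1, whose protein bundles microtubules of the central spindle, at 367 (338 to 397) against 9.47 (8.30 to 10.8). The tubulin gene Tubb4b was at 1198 CPM against 268. Summed over all their matched genes, with no minimum, the kinetochore and centromere list (39 genes) had a log2 ratio of 3.39 (3.33 to 3.45), spindle and cytokinesis (51 genes) 2.78 (2.74 to 2.82), the checkpoint and anaphase-promoting complex (40 genes) 2.40 (2.35 to 2.44), condensin and chromatin (57 genes) 1.68 (1.67 to 1.70) and S phase (118 genes) 1.92 (1.88 to 1.96). These genes are expressed together with those of the rule, so the sums describe the selection.

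The rule also took in cells with transcripts of DNA replication. At least 3 of 12 core replication genes (Mcm2 to Mcm7, Pcna, Tyms, Rrm2, Pclaf, Gins2 and Cdc6, a set chosen after values were seen) had a UMI in 112 of 353 mitotic cells (31.7%, 26.9 to 36.9) and in 69 of 6465 other cells (1.07%, 0.831 to 1.35). After thinning these were 35 of 283 (12.4%) and 35 of 6355 (0.551%). Some replication genes were higher at 6 to 8 rule genes than at 9 to 12. Pcna, the sliding clamp, was at 23.05 CPM (10.5 to 43.8) with 3 to 5 rule genes, 53.3 (33.8 to 80.0) with 6 to 8 and 11.9 (5.72 to 21.95) with 9 to 12. Mcm3, a subunit of the replicative helicase, was at 35.9 CPM (19.6 to 60.2), 71.9 (48.8 to 102) and 28.6 (18.4 to 42.6), so that the intervals of the upper pair of classes did not overlap for either gene. Nor did those of Mcm6 (55.7, 35.7 to 82.8, against 21.5, 12.7 to 34.0) and Mcm7 (183, 145 to 228, against 103, 82.1 to 127). The intervals of some other replication genes did overlap, as for Tyms, which makes thymidylate (71.9, 48.8 to 102, against 43.0, 30.1 to 59.5). Those of Rrm2, a subunit of ribonucleotide reductase, overlapped too (76.5, 52.7 to 107, against 70.4, 53.6 to 90.8). Plk1, a kinase of mitotic entry and exit, ran the other way, with 20.5 CPM (8.84 to 40.4), 58.0 (37.5 to 85.6) and 109 (87.5 to 133). Cdc20 was at 136 CPM, 232 and 328 in the same order, and Prc1 at 99.9, 285 and 534. The number of rule genes and depth move together, and the share of cells with 3 core replication genes ran 21.8%, 34.7% and 36.4% over these classes before thinning and 14.7%, 11.9% and 7.50% after it, so no order is read from those shares.

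**Figure D2:**
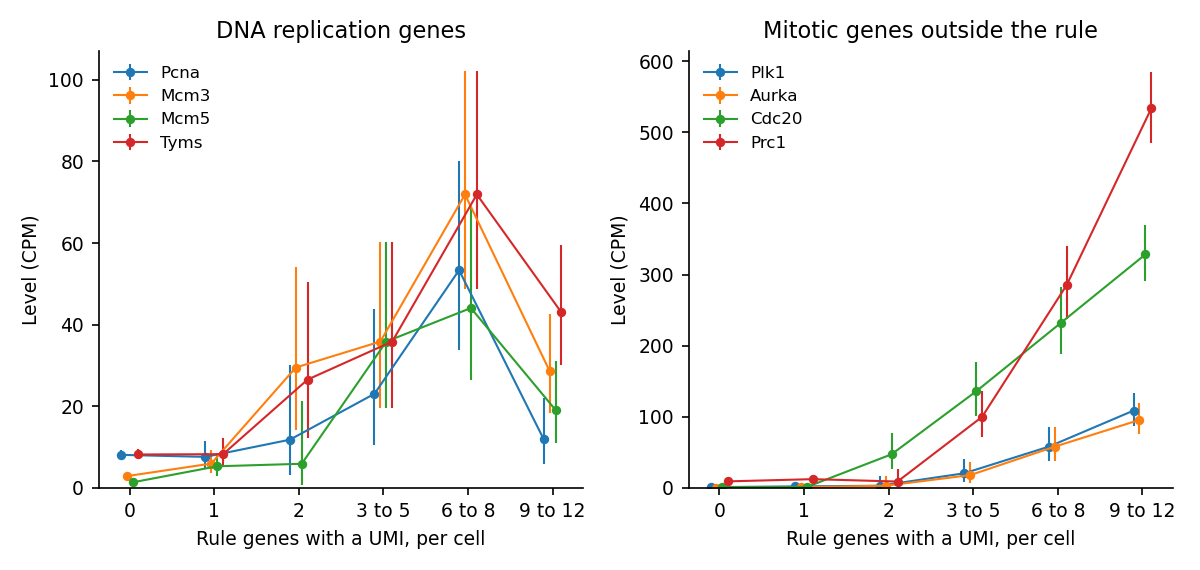
Level (CPM, summed over cells) of replication genes (left) and of mitotic genes outside the rule (right) by the number of rule genes per cell in the P library, with exact 95% Poisson intervals. Pcna, Mcm3, Mcm5 and Tyms are highest at 6 to 8 rule genes, with overlapping intervals against 9 to 12 for Mcm5 and Tyms, and Plk1, Aurka, Cdc20 and Prc1 are highest at 9 to 12.

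To place the mitotic cells among the urothelial states, kept P cells were clustered without the 436 cell-cycle genes. Of the mitotic cells, 301 (85.3%, 81.1 to 88.8) fell into cluster 0, a cluster of 2897 cells in which 5 of 7 basal markers were raised over the other clusters, beside 1 of 10 intermediate and 1 of 13 squamous markers. Its leading genes outside the cell cycle (Nbl1, Col12a1, Wnt10a, Dlk2, Col18a1 and Krt17) were read after values were seen, and the clusters are called by number. Cluster 1 (2585 cells), with Calml3, Ltf and Psca in the lead and all 10 intermediate and 12 of 13 squamous markers raised, held 27 mitotic cells, and cluster 2 (1336 cells, Fmo2, Krt1 and Slc7a11) held 25.

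Mitotic cells were thus 10.4% of cluster 0 (9.30 to 11.6), 1.04% of cluster 1 (0.689 to 1.52) and 1.87% of cluster 2 (1.21 to 2.75). Cells of cluster 0 were the shallowest, with a median of 2891 UMIs against 4212 and 3258.5. At a common 2100 UMIs the shares were 9.04% (8.00 to 10.2), 0.662% (0.386 to 1.06) and 1.29% (0.754 to 2.06). Cells just inside the threshold lay mostly in cluster 0 (40 of 47, 85.1%), and cells just outside it less so (46 of 77, 59.7%). With resolution 0.4 in place of 0.2, 278 mitotic cells (78.8%) were in a cluster of 1878 cells. Another cluster of 1022 cells with Nbl1, Adm, Tgfbi, Ndrg1 and Slc2a1 among its leading genes, some of them known targets of hypoxia, held 24 (6.80% of mitotic cells and 2.35% of that cluster).

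The 27 mitotic cells of cluster 1 carried transcripts of both layers. Krt14, the basal keratin, was at 1904 CPM in them and 394 in the other cells of that cluster, and Psca, a surface antigen of intermediate cells, at 1725 and 3888. Median depth was 8767 UMIs in the 27 and 4198 in the others. A UMI of both Krt14 and Psca was present in 19 of the 27 (70.4%, 49.8 to 86.2) and in 31.2% of the others. Of the 27, 18 (66.7%, 46.0 to 83.5) were among the 6% of P cells with the highest doublet scores, against 4.85% of the other cells of cluster 1 and 6.98% of the mitotic cells of cluster 0. The part of doublets in these values was not tested.

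Across the library, mitotic cells had more basal and fewer intermediate and squamous transcripts than the other P cells. Genes were measured where they had at least 300 UMIs over both groups of cells. Outside the cell-cycle lists, 919 of 6378 measured genes (14.4%) were at least 1.5-fold higher in mitotic cells and 528 (8.28%) at least 1.5-fold lower, with a median log2 ratio of 0.14 over all of them. Scaling by the median ratio of genes removes that shift and gave 548 higher and 754 lower. Of the 7 basal genes, 3 were past 1.5-fold higher and none lower (median 0.54). Krt14 was at 2891 CPM (2810 to 2974) in mitotic cells and 1709 (1693 to 1725) in the others, a log2 ratio of 0.76 (0.72 to 0.80). Itgb4, which anchors cells through hemidesmosomes, had a ratio of 0.96 (0.75 to 1.16) and Trp63, the basal transcription factor p63, 0.59 (0.43 to 0.74). Krt5 was at 3492 CPM against 3537 (-0.02, -0.06 to 0.02), so that one basal keratin was level while its partner was higher.

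None of 10 intermediate markers had a ratio above 0, and 5 were past 1.5-fold lower (median -0.49). Psca was at 321 CPM (294 to 349) in mitotic cells and 1978 (1961 to 1996) in the others (-2.63, -2.75 to -2.50), and the simple-epithelium keratin Krt19 at 1032 and 2879 (-1.48, -1.55 to -1.41). Of 13 measured squamous markers, 12 were past 1.5-fold lower (median -1.43). Sprr1a, a precursor of the cornified envelope, was at 157 CPM against 726 (-2.21, -2.39 to -2.03), and its relative Sprr2f at 5.42 against 102, from 9 UMIs in the mitotic cells. Uroplakins were scarce in both: the 5 genes had 14 UMIs in mitotic cells and 534 in the others, and Upk1a 2 and 325 (-3.43, -6.48 to -1.57).

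Genes of adhesion to the basement membrane were higher over much of their list, while the Notch list had genes past 1.5-fold in both directions. Over all measured genes 14.4% were past 1.5-fold higher and 8.28% lower. In the matrix adhesion list 8 of 9 measured genes had a ratio above 0 and 5 were past 1.5-fold higher (median 0.61), among them the integrin gene Itgb1 at 201 CPM against 129 and the laminin gene Lamb3 at 42.8 against 21.1. The Wnt list had a median of -0.01 with 2 of 11 higher, and the ligand gene Wnt10a was at 86.8 CPM (73.2 to 102) against 29.3 (27.2 to 31.5), a ratio of 1.57 (1.30 to 1.83). In the Notch list (median -0.11, 2 higher and 3 lower of 9) the receptor Notch1 had a ratio of 0.80 (0.63 to 0.96), the ligand Jag2 1.28 and the ligand Jag1 -0.84. Medians of the EGF family (-0.34) and of urothelial transcription factors (-0.28) lay below 0 with 2 of 7 and 3 of 8 genes past 1.5-fold lower. Inside cluster 0, 0 of 7 measured Wnt genes were past 1.5-fold higher and 1 lower, and 0 of 4 Notch genes were past it in either direction. There Wnt10a was at 106 CPM in mitotic cells against 80.2 in the others and Notch1 at 204 against 142. Jag2 was at 88.5 CPM against 81.6 and Jag1 at 28.2 against 38.3.

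By the ranking of genes outside the cell-cycle lists, several leading ones still belong to division by their known role. Nde1, a partner of dynein at the centrosome and kinetochore (chromosome 16, 14163275 to 14192928, plus strand, GRCm38), was at 82.6 CPM (69.3 to 97.6) against 15.7 (14.2 to 17.3). Its log2 ratio of 2.40 was followed by the nucleoporin gene Nup37 (2.32) and the centrosome gene Cep57 (2.22). Bmp2, a secreted ligand of the BMP pathway (chromosome 2, 133552159 to 133562885, plus strand), was at 51.2 CPM (40.9 to 63.3) against 12.4 (11.1 to 13.9). Next came the nuclear export factor Cse1l (1.95), 4930523C07Rik (1.95), Myef2 (1.92), the RNA exosome subunit Exosc8 (1.92), Fam111a (1.86), whose protein works at replication forks, and Depdc7 (1.80). The lowest 10 were Sprr2f, Slurp1, Spink5, Upk1a, Ltf, Bicdl2, AA467197, Tmprss11d, Smpdl3a and Psca. Slurp1 rested on 1 UMI in the mitotic cells (-4.55, -9.86 to -2.06) and Ltf, lactoferrin, on 9 (-3.38, -4.51 to -2.45).

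Most of these urothelial differences were not seen within cluster 0. Only cell-cycle genes were left out of the clustering, so urothelial genes could shape cluster 0. Similar levels of such genes inside it are therefore partly built in. Compared only with the other 2596 cells of cluster 0, the 301 mitotic cells had 253 of 3050 genes (8.3%) at least 1.5-fold higher and 98 (3.21%) at least 1.5-fold lower, with a median of 0.11 over all of them. Scaling by the median ratio gave 148 and 160, and totals without mitochondrial and ribosomal protein genes 138 and 169. The basal list had a median of 0.00 with none of 7 past 1.5-fold in either direction, matrix adhesion -0.11 with none of 9, intermediate markers 0.01 with 1 of 9 higher, and squamous markers -0.02 with 2 higher and 1 lower of 6. Psca was at 57.2 CPM (44.8 to 71.9) in the mitotic and 53.8 (48.8 to 59.1) in the other cells of cluster 0.

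Basal genes did not move together inside cluster 0. Krt14 (chromosome 11, 100203162 to 100207548, minus strand) was at 3176 CPM (3079 to 3275) in mitotic cells and 4110 (4066 to 4155) in the others, lower by a log2 ratio of -0.37 (-0.42 to -0.32) where it had been higher against the whole library. Col17a1, a hemidesmosome collagen (chromosome 19, 47646344 to 47692094, minus strand), was at 347 (315 to 381) and 504 (488 to 519), a ratio of -0.54 (-0.68 to -0.40). Trp63 was at 247 CPM in both, and Krt5 at 3298 and 3152. Cd44, a hyaluronan receptor, was at 123 and 87.3 (0.49, 0.23 to 0.75). In cluster 1, where mitotic cells often carried both layers' genes, Krt14 and Col17a1 were instead higher in them, Col17a1 at 194 CPM against 88.1.

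**Figure D3:**
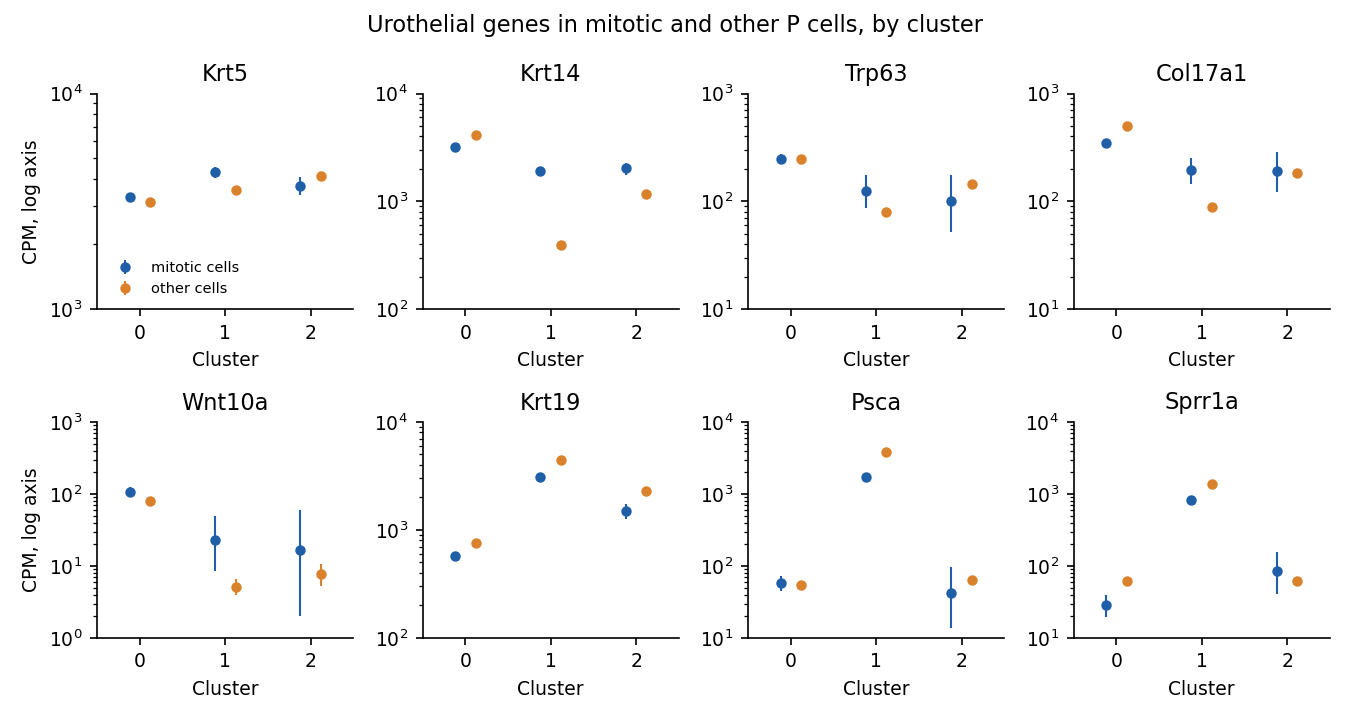
Level (CPM, log axis) of 8 urothelial genes in mitotic and other P cells of clusters 0, 1 and 2, with exact 95% Poisson intervals (301, 27 and 25 mitotic cells). Krt14 and Col17a1 are lower in the mitotic cells of cluster 0 and higher in those of cluster 1, and Psca is near 55 CPM in both groups of cluster 0.

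Keratins that pair in simple epithelia ran the other way. Krt8 (chromosome 15, 101996698 to 102004482, minus strand) was at 150 CPM (129 to 172) in the mitotic and 66.4 (60.9 to 72.4) in the other cells of cluster 0, a ratio of 1.17 (0.92 to 1.41). Its partner Krt18 was at 317 (287 to 350) and 223 (213 to 234), a ratio of 0.51 (0.35 to 0.66). Krt19 and Krt7 were lower, at -0.40 (-0.51 to -0.29) and -0.38 (-0.46 to -0.30), so the higher level did not extend to all keratins of this list. At 2100 UMIs, Krt8 had a UMI in 18.1% of 287 mitotic cells (13.8 to 23.1) and 11.5% of 2467 others (10.2 to 12.8). Over 0, 1 to 2, 3 to 5, 6 to 8 and 9 to 12 rule genes the Krt8 level was 60.7, 95.4, 139, 186 and 136 CPM. Of squamous genes, Krt13 and Krt6a were higher inside cluster 0 (0.83 and 0.71) and Sprr1a lower (-1.12, -1.65 to -0.63), where against the whole library all 3 were lower.

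Of the inhibitors of cyclin-dependent kinases, which hold cells in G1, Cdkn1b and Cdkn1a were higher in the mitotic cells of cluster 0 and Cdkn2a was not. Cdkn1b, p27 (chromosome 6, 134920401 to 134925513, plus strand), was at 85.4 CPM (70.1 to 103) against 40.1 (35.8 to 44.8), a ratio of 1.09 (0.76 to 1.41). Cdkn1a, p21 (chromosome 17, 29090976 to 29100727, plus strand), was at 95.5 (79.3 to 114) against 62.5 (57.1 to 68.3), a ratio of 0.61 (0.31 to 0.90), while against all other P cells it was level (-0.08, -0.30 to 0.14). These were the 2 of 9 measured genes of the list past 1.5-fold higher, beside 8.3% of all genes, and the list's median was 0.12. Over 0, 1 to 2, 3 to 5, 6 to 8 and 9 to 12 rule genes Cdkn1a was at 58.2, 84.7, 82.8, 110 and 93.7 CPM. It was thus already higher in cells with 1 to 2 rule genes, which were not taken as mitotic. Cdkn1b was at 41.2, 34.6, 52.7, 88.4 and 96.6 CPM. At 2100 UMIs Cdkn1b had a UMI in 17.4% of mitotic cells (13.2 to 22.3) and 7.99% of the others (6.95 to 9.13), and Cdkn1a in 17.8% (13.5 to 22.7) and 10.3% (9.09 to 11.5). Cdkn2a was at 104 CPM (87.2 to 123) against 115 (108 to 123), and Cdkn2b and Cdkn1c were under the minimum of UMIs. Among the cyclins of G1, Ccnd1 had a ratio of 0.12 and Ccnd2 -0.35.

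Genes of pre-mRNA splicing were higher both across the library (14 of 20 past 1.5-fold, median 0.75) and inside cluster 0 (8 of 20, median 0.48), and none was lower by as much. Over all genes 14.4% were past 1.5-fold higher across the library and 8.3% inside cluster 0. Srsf3, a splicing factor (chromosome 17, 29032628 to 29043373, plus strand), was at 274 CPM (246 to 304) against 117 (110 to 125) inside the cluster (1.22, 1.04 to 1.40). The core snRNP gene Snrpd1 had a ratio of 0.94 (0.76 to 1.12) and Hnrnpa2b1, an RNA-binding protein gene, 0.90 (0.75 to 1.04). The summed list was at 3673 CPM without rule genes, 4171 with 1 to 2, 5447 with 3 to 5, 5664 with 6 to 8 and 5240 with 9 to 12. Of nucleolar genes, 6 of 15 were past 1.5-fold higher across the library (median 0.40) and 2 of 12 inside the cluster (median 0.18), where 7 of 12 were above 0 and the summed list had a ratio of -0.045 (-0.087 to -0.0037).

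Chaperone and cholesterol synthesis lists had medians of 0.32 and 0.62 inside cluster 0, each from few genes, and the actin list lay at the median of all genes. The chaperone gene Hsp90aa1 was at 416 CPM (381 to 453) against 218 (208 to 229), and Hspa5, the chaperone of the endoplasmic reticulum, at 190 (166 to 215) against 119 (111 to 127), 2 of 9 genes of the heat shock list. Of the actin list, Actb (1325 against 844 CPM, 0.65) and Tagln2 (333 against 187, 0.83) were past 1.5-fold, 2 of 17, and the median was 0.11. In cholesterol synthesis Msmo1, a sterol oxidase gene, had a ratio of 1.02 (0.69 to 1.34) and Hmgcs1, which makes the pathway's HMG-CoA, 0.70 (0.38 to 1.02). Only 4 of its 16 genes had enough UMIs there, and across the library 4 of 13 were higher (median 0.36). Over all genes 8.3% were past 1.5-fold higher inside cluster 0 and 14.4% across the library.

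**Figure D4:**
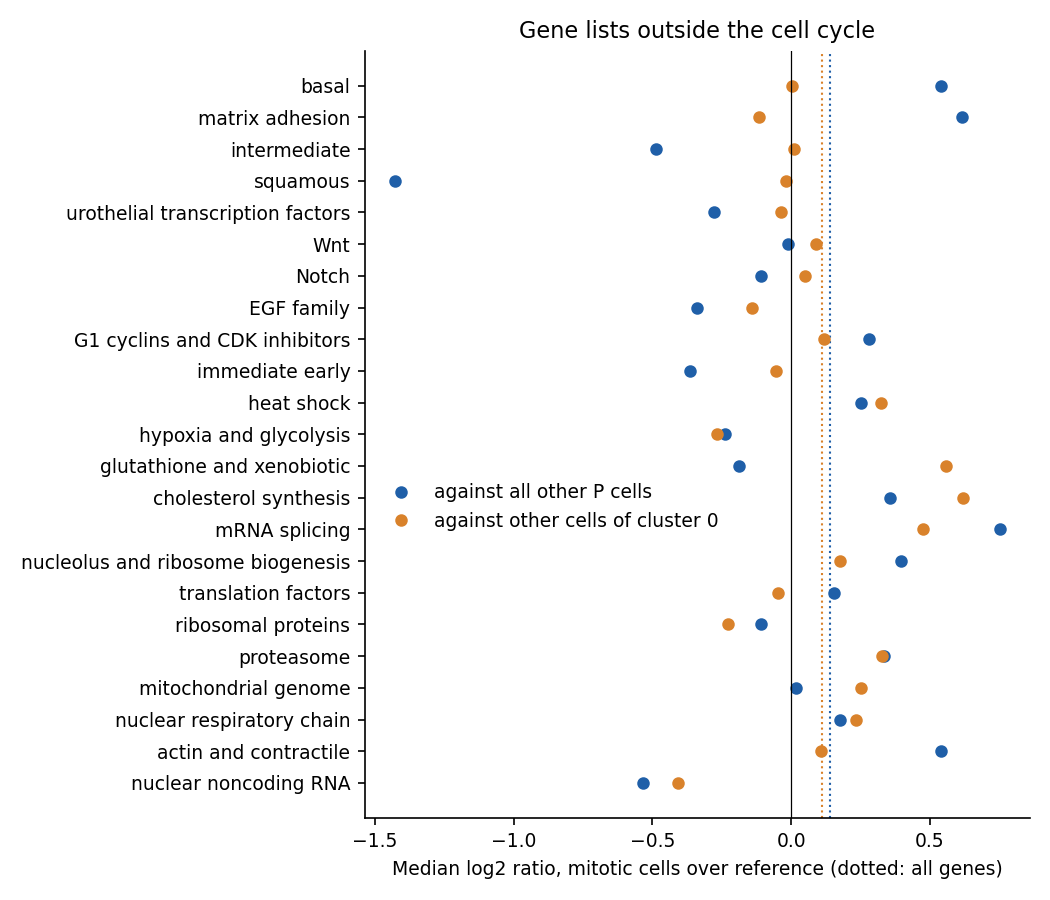
Median log2 ratio of mitotic cells over all other P cells and over the other cells of cluster 0, for gene lists outside the cell cycle, counting genes with at least 300 UMIs. Dotted lines mark the medians of all genes tested, 0.14 and 0.11, and the basal, matrix adhesion, intermediate and squamous lists lie near 0 inside cluster 0. Genes of these lists were not left out of the clustering that made cluster 0.

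Neat1, Malat1 and part of the hypoxia genes were lower inside cluster 0. Neat1, the scaffold RNA of paraspeckles (chromosome 19, 5824708 to 5845478, minus strand), was at 497 CPM (459 to 537) against 1031 (1009 to 1054) inside cluster 0, a ratio of -1.05 (-1.17 to -0.94). Its level over 0, 1 to 2, 3 to 5, 6 to 8 and 9 to 12 rule genes was 1037, 998, 708, 476 and 426 CPM. Malat1, an RNA of nuclear speckles, was at 31702 against 42111 (-0.41, -0.42 to -0.39). In the hypoxia and glycolysis list 4 of 18 genes were past 1.5-fold lower and none higher (median -0.27), beside 3.21% lower and 8.3% higher over all genes. Ndrg1, induced by low oxygen, was at 45.4 CPM (34.5 to 58.7) against 163 (154 to 172), the glucose transporter Slc2a1 had a ratio of -0.93, the hexokinase gene Hk2 -0.77 and the oxygen sensor Egln3 -0.73. At resolution 0.4 a cluster with Nbl1, Adm and Ndrg1 among its leading genes held 24 mitotic cells of 1022. Its overlap with cluster 0 at resolution 0.2 was not counted, and its part in these values was not tested.

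Inside the resolution 0.4 cluster that held most mitotic cells (278 against 1600 other cells, a comparison added after seeing the data) 110 genes were past 1.5-fold higher and 37 lower. Of the genes higher at resolution 0.2, 101 were also higher here (39.9% of 253 and 91.8% of 110), and of those lower 24 (24.5% of 98 and 64.9% of 37). Krt8 had a ratio of 1.28 there, Cdkn1a 1.16, Srsf3 0.97, Hsp90aa1 0.76, Msmo1 0.90, Krt14 -0.22, Col17a1 -0.32 and Neat1 -0.45. Hypoxia and glycolysis genes had a median of 0.16, with Slc2a1 at 0.20 and Egln3 at 0.12, so their lower level did not hold among these cells. Ndrg1 and Cdkn1b did not reach the minimum of UMIs there.

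The leading genes inside cluster 0 included further ones tied to division by their known role. G2e3, a ubiquitin ligase gene of G2 and mitosis (chromosome 12, 51348061 to 51376986, plus strand), was at 117 CPM (98.7 to 137) against 23.03 (19.8 to 26.6), a ratio of 2.34 (2.02 to 2.66). It was followed by Lsm3 of the U6 snRNP (1.80), Fam111a (1.72), Ubald2 (1.56) and Rnaseh2c (1.51), a subunit of the enzyme that removes ribonucleotides from DNA. The lowest were Fxyd4, a regulator of the sodium pump, at 65.0 CPM (51.8 to 80.6) against 243 (233 to 255), Ndrg1 (-1.84), the BMP antagonist gene Nbl1 (-1.83), Isg20 (-1.50) and the oxidase gene Ero1l (-1.46), which had a ratio of 0.40 in the resolution 0.4 cluster.

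**Figure D5:**
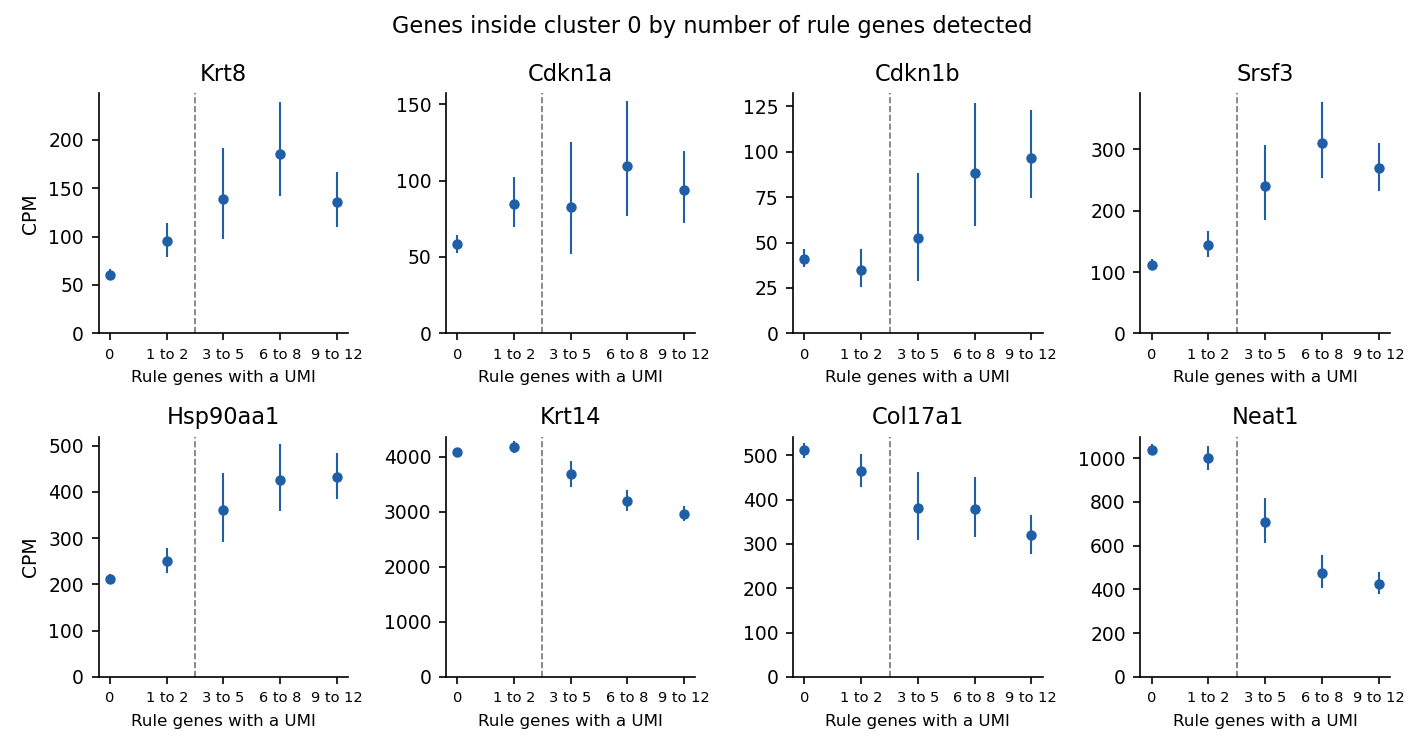
Level (CPM, summed over cells) of 8 genes inside cluster 0 by the number of rule genes per cell, with exact 95% Poisson intervals; cells to the right of the dashed line were taken as mitotic. Krt8, Cdkn1a, Srsf3 and Hsp90aa1 are already higher at 1 to 2 rule genes, in cells not taken as mitotic, than at 0. Krt14, Col17a1 and Neat1 are lowest at 9 to 12.

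In differentiated organoids the same rule found 14 cells with a median of 6090.5 UMIs, against 3223 in the other D cells. Doublet scores were not computed for D. Birc5, survivin, had a UMI in 92.9% of the 14 cells, Mki67 in 85.7%, Top2a in 78.6% and Ccnb1 in 28.6%. Against the other D cells their summed basal genes had a log2 ratio of 0.96 (0.88 to 1.03), intermediate genes -1.49 (-1.64 to -1.35) and splicing genes 0.80 (0.68 to 0.91). In P the same sums gave 0.31 (0.29 to 0.34), -1.10 (-1.13 to -1.06) and 0.69 (0.66 to 0.73), and the difference between the libraries was not tested.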

How the data were processed

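Per the labels and the submitters' processing notes, libraries were made with droplet 3′ chemistry, and the authors demultiplexed reads with bcl2fastq 2.19.0 and counted them against mouse build GRCm38/mm10 with Cell Ranger 3.0.2. The deposited values are raw counts of UMIs per gene and barcode, and no deposited column of values was left unused. Reads that fit close paralogs equally well (keratins, Sprr genes, histones) cannot be assigned, so such genes are uncertain. How the authors treated doublets is not given in the sources used here. Doublets were kept. Scrublet (scanpy 1.11.5) called 0 cells by its own threshold, so its calls gave nothing to leave out. Leaving out the highest 6% of scores served as an alternative, and how well the scores find doublets here was not tested.

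Cells are not replicates, and each group is 1 library: UMIs were summed over cells and scaled to CPM, without a test between conditions. Genes needed at least 300 UMIs over both groups compared, and a gene was counted as higher or lower past 1.5-fold. For clustering, Seurat 5.3.0 (R 4.3.3) log-normalised to 10000, took 2000 variable features (1787 without cell-cycle genes), 25 components and resolution 0.2. Sums and ratios used Python 3.11.15, numpy 2.4.6, scipy 1.17.1 and pandas 2.3.3, and the ratio step was tested on simulated data. Gene positions came from GENCODE on GRCm38 (30934 of 31053 identifiers placed). There were 35 repeated symbols.

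The mitotic cells, the gene lists and the comparisons were chosen with earlier results of these data known. Named genes were members of the lists, plus the 10 with the largest ratio in each direction outside cell-cycle, ribosomal protein and mitochondrial genes (5 inside the cluster holding most mitotic cells), with 0.5 UMI added for ranking. Alternatives changed cell filters, the rule, depth, scaling, the minimum, the fold, doublets, the reference cells and the clustering.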

Additional observations from a re-analysis of the deposited data

Results flagged for a closer look

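Rule genes also appeared in P barcodes that the filters left out and no comparison of the report used. An alternative with looser filters took in part of them and held 368 mitotic cells in place of 353. At least 3 of the 12 rule genes had a UMI in 25 of 1376 such barcodes (1.82%, 1.18 to 2.67), where a count of 0 would have allowed up to 0.218%. Their median depth was 1335 UMIs and 625 genes. Of the 25, 22 had at most 800 genes and 10 were over 12% mitochondrial. Whether they were mitotic cells captured at low depth was not tested.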

How the results depend on the processing

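No paired analysis was possible because each condition was 1 library. Mitotic cells were 5.18% of kept P cells, and 6.72% with over 1000 genes and at most 10% mitochondrial UMIs, 6.31% with at least 2 rule genes, 4.49% with at least 4 and 4.26% after thinning. Their share in the cluster holding most of them (85.3%) was 78.8% at resolution 0.4, 90.6% without the highest doublet scores and 80.7% with at least 2 rule genes. With cell-cycle genes in the clustering, 90.7% fell into a different cluster of 339 cells, 320 of them mitotic. That cluster was led by the rule genes Hmmr, Nusap1 and Ccnb1, so its share describes the selection. The cluster led by Nbl1, Dlk2 and Gm4610 then held 21 mitotic cells (5.95%). The 919 genes higher across the library became 548 with median-ratio scaling, 286 with a minimum of 1000 UMIs, 253 against the same cluster, 369 against other cells with at least 3 of the 7 basal genes and 210 at 2-fold. The 528 lower became 197, 98, 166 and 232 in the same order without the scaling. Inside cluster 0, the 253 higher became 110 at resolution 0.4, 151 after thinning, 148 with median-ratio scaling and 138 without mitochondrial and ribosomal protein genes. The 98 lower became 37 at resolution 0.4, 160 with median-ratio scaling and 169 without those genes. The alternatives inside cluster 0 were chosen after seeing the data.

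Against the same cluster in place of all other cells, values past 1.5-fold changed direction for the median of matrix adhesion (-0.11), Krt14 (-0.37), Itgb4 (-0.11), Psca (0.088), Krt13 (0.83), Krt6a (0.71) and Gsto1 (0.14). Smaller values that changed sign included the median of glutathione and xenobiotic genes (0.56), Krt8 (1.17), Krt18 (0.51), Cdkn1a (0.61) and Col17a1 (-0.54). Against other cells with at least 3 basal genes the log2 ratio of Trp63 turned to -0.029. At resolution 0.4, Elf3 (0.14), Ero1l (0.40), Slc2a1 (0.20) and Egln3 (0.12) changed direction. Of 639 values of named genes across the library, 468 moved by less than their counting interval, and inside cluster 0, 272 of 313. Depth limits genes with few UMIs in 353 cells: those under the minimum were not compared, and low squamous and uroplakin counts give wide intervals.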

Other observations

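Proteasome genes had a median of 0.33 across the library, with 7 of 35 past 1.5-fold higher and none lower, and of 0.33 inside cluster 0, with 5 of 33 higher and none lower. Over all genes the medians were 0.14 and 0.11, and 14.4% and 8.3% of genes were higher. Nuclear genes of the respiratory chain had medians of 0.18 (5 of 71 higher) and 0.23 (5 of 70). The 13 protein genes of the mitochondrial genome had 0.02 and 0.25, with none past 1.5-fold. Cytosolic ribosomal protein genes lay slightly below 0, at -0.11 (12 of 80 above 0) across the library and -0.23 (3 of 80) inside cluster 0, where their sum was 410368 CPM in cells without rule genes and 343539 CPM in cells with 9 to 12. Translation factors had medians of 0.15 and -0.05.

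Immediate early genes, which respond to growth factors and to cell dissociation, had medians of -0.36 across the library (2 of 13 past 1.5-fold lower) and -0.05 inside cluster 0 (none of 11). Glutathione and xenobiotic genes had -0.19 across the library, with 4 higher and 4 lower of 11, and 0.56 inside cluster 0 with 2 of 6 higher. Over all genes 14.4% were higher and 8.28% lower across the library, and 8.3% and 3.21% inside cluster 0. Nqo1, a quinone reductase gene, was at 50.6 CPM (40.4 to 62.7) in mitotic cells and 17.9 (16.3 to 19.7) in all other P cells.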
